A study of Mus musculus with 6 samples.

Results

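The genes *Cdx1*, *Cdx2*, *Hnf4a*, *Hnf4g*, *Gata4*, *Gata6*, *Klf4*, *Klf5*, *Elf3* and *Creb3l3* encode transcription factors of intestinal lineage and segment, and they were followed through single cells of small-intestinal crypts. They were taken by name, and all 10 had a row in each of the 6 count tables, among 19178 genes in all. A barcode was kept as a cell when it showed 300 or more genes and no more than 25% mitochondrial counts, which left 4890 of 13191 barcodes (37.1%).

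The cells came from C57BL6 mice at 10 weeks of age that received no treatment. The 3 knockout collections came from mice with *Ptger4* ablated in epithelial cells, and the 3 flox collections from mice that carry the floxed gene. *Ptger4* encodes EP4, a receptor for prostaglandin E2. Each genotype had 2 biological replicates. The sample codes were read as collections 1 and 2 sharing biological replicate 1 and collection 3 being biological replicate 2. The sources used here do not give the Cre driver, the deleted part of the gene or the number of animals per replicate. The p-values therefore measure the spread between these replicates, which may be partly technical. Drop-seq captures a cell and a barcoded bead in a droplet and counts each RNA near its 3′ end by molecular identifier (UMI), so levels are given as CPM, the counts of a gene scaled to a common total of all counts of the cells named. Values of the 3 collections of a genotype are listed in the order 1, 2, 3.

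CDX1 and CDX2 are homeobox factors that give the gut epithelium its intestinal identity. HNF4A and HNF4G are related nuclear receptors that drive absorptive genes, and GATA4 and GATA6 are zinc-finger factors, of which GATA4 is known for its role in the duodenum and jejunum and its absence from the terminal ileum. KLF5 is a Krüppel-like factor of dividing crypt cells, KLF4 is one of goblet and other differentiated cells, ELF3 is an epithelial ETS factor, and CREB3L3 is a membrane-bound factor of enterocytes and liver that drives genes of lipid transport.

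Total counts per collection ranged from 1228337 to 3146909, and the kept cells per collection from 473 to 1053 with a median of 1070 to 1471.5 counts per cell. Clustering gave 17 clusters, of which 13 were named from marker genes: 4516 cells were counted as epithelial, including 1534 cells of 4 unnamed clusters, and 374 as immune. No tuft cell cluster was found. *Ptger4* had 16.0, 18.9 and 24.9 CPM in epithelial cells of the knockout collections and 12.4, 11.5 and 15.3 CPM in those of the flox collections, so the labelled loss did not show in the 3′ counts. Counts outside the deleted part check nothing, and the genotypes below are those of the labels. Of the kept barcodes, 133 (2.72%) occurred in more than 1 collection. Such sharing linked knockout 1 with flox 1 and 2, and knockout 2 and 3 with flox 3, and was read as 2 sequencing runs. The sample labels name no run, so these are called inferred runs. They part knockout 1 from knockout 2, which were read as the same biological replicate. *Xist* was counted 1880 times in knockout 3, 1674 times in flox 3 and at most 12 times in any other collection. The third collections, biological replicate 2 of each genotype, thus also stand apart from the others. This difference is part of the spread between replicates that the main tests use, since they have no block.

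On the mouse build GRCm38 (mm10), *Cdx1* lies at chromosome 18, 61018862 to 61036199, and *Gata6* at chromosome 18, 11052064 to 11085635. *Cdx2* lies at chromosome 5, 147300805 to 147307270, *Hnf4a* at chromosome 2, 163506808 to 163572910, and *Hnf4g* at chromosome 3, 3508030 to 3658052. *Gata4* lies at chromosome 14, 63198922 to 63271692, and *Klf5* on the same chromosome, 99298691 to 99315036. *Klf4* lies at chromosome 4, 55527143 to 55532466, *Elf3* at chromosome 1, 135253575 to 135258568, and *Creb3l3* at chromosome 10, 81084324 to 81098874. Genes on the opposite strand overlap *Elf3* (*Gm26642*, 18 counts against 2849 of *Elf3*) and *Gata6* (*1010001N08Rik*, 104 against 1161). Whether the counting used strand is not stated, so some counts of these genes may belong to the partner.

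The factors fell into those that were broadly level across the epithelium and those that differed between classes. Classes were compared by their summed counts, as the mean ± SD over the 4 biological replicates of both genotypes, with the 10 genes left out of the clustering. Because the classes come from the same cells, these comparisons are descriptions without a test. A class was also compared with stem cell-like cells within each biological replicate.

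*Creb3l3* had the steepest pattern. In enterocyte-like cells the knockout collections had 389, 237 and 123 CPM and the flox collections 251, 259 and 322 CPM. In stem cell-like cells the knockout collections had 12.9, 6.55 and 6.40 CPM and the flox collections 4.57, 0 and 15.7 CPM. Every enterocyte value was above every stem value, with 737 counts against 9, and the pooled level was 35.2 times as high, with a counting interval (95%) that begins at 18.5. Goblet-like cells stood at 18.9 ± 16.4 CPM (SD, n = 4). No *Creb3l3* count was found in 81 enteroendocrine-like cells, and a floor of 3 counts allows up to 21.7 CPM, so this depth does not place them below stem or goblet-like cells.

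Each cell was also thinned to 500 UMIs, so that depth could not set the share of cells with a count. After thinning, 19.7% of proximal enterocyte-like cells (exact 95% interval 16.6 to 23.0) and 0.255% of stem cell-like cells (0.00646 to 1.41) held a *Creb3l3* UMI. Before thinning the shares were 42.2% and 2.24%, at median depths of 1718 and 2015 counts. Immune cells, which should lack the gene, had 0 of 316 thinned cells with a UMI (upper bound 1.16%) and 0.802% before thinning, at a median depth of 728.5 counts, and the exact intervals cover counting error only. Their *Creb3l3* level was 10.9 ± 11.9 CPM, and that of B or plasma cell-like cells 17.7 ± 20.6 CPM. The stem cell-like level of 8.80 ± 5.30 CPM is therefore at background, and the ratio of 35.2 is one to background.

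*Hnf4g*, the HNF4 paralog of the gut, differed between classes more than *Hnf4a* did. Stem cell-like cells of the knockout collections had 45.3, 45.8 and 64.0 CPM of *Hnf4g* and those of the flox collections 59.4, 49.0 and 52.3 CPM. Enterocyte-like cells had 242, 234 and 297 CPM in the knockout and 349, 220 and 359 CPM in the flox collections. No enterocyte value reached down to the stem range, and the ratio was 5.55 (log2 2.47, SD 0.24, n = 4). Cycling-like cells were between the 2 classes at 176 ± 47.3 CPM, 3.23 times the stem level, and goblet-like cells stood at 148 ± 50.3 CPM, 2.70 times the stem level. Cycling-like and goblet-like levels were closer than their SDs. Goblet-like cells were not uniform: the *Muc2*- and *Ccl9*-led cluster had 176 CPM and the *Zg16*- and *Agr2*-led cluster 62.4 CPM.

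*Hnf4a*, the other paralog, stood at 240 ± 42.2 CPM in stem, 252 ± 48.7 in cycling, 218 ± 24.0 in goblet and 235 ± 25.9 in enterocyte-like cells. These 4 means differed by less than the largest of their SDs, and enteroendocrine-like cells stood lower at 123 ± 33.6 CPM. The 3′ counts do not separate the *Hnf4a* isoforms, which start at different promoters.

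*Klf4* was higher in goblet-like than in stem, cycling or enterocyte-like cells as whole classes. The knockout collections had 426, 391 and 418 CPM there and the flox collections 493, 527 and 318 CPM. In stem cell-like cells it ranged from 49.0 to 116 CPM, so the classes did not overlap, and the ratio was 4.45 (log2 2.15, SD 0.40, n = 4). The *Zg16*- and *Agr2*-led cluster reached 676 ± 110 CPM and the *Muc2*- and *Ccl9*-led cluster 298 ± 43.0 CPM. The latter was close to the *Apoa4*-led enterocyte-like cluster at 259 ± 55.3 CPM, so *Klf4* did not set the whole goblet-like class apart. After thinning, 144 of 719 goblet-like cells (exact 95% interval 17.2% to 23.1%) and 5.10% of stem cell-like cells (3.14 to 7.77) held a *Klf4* UMI, and before thinning the shares were 52.7% and 20.2%, at median depths of 1768 and 2015 counts. Immune cells are no background for this gene, since 9.14% of thinned B or plasma cell-like cells (5.41 to 14.2) held a UMI.

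*Klf5* is known from dividing crypt cells. It was at 533 ± 28.9 CPM in enterocyte-like, 499 ± 54.6 in cycling-like, 443 ± 39.9 in goblet-like and 318 ± 62.5 in stem cell-like cells. Its mean was thus not highest in cycling-like cells, although the first 2 means differed by less than the larger SD. *Klf5* was higher than in stem cell-like cells in all 4 replicates in enterocyte, goblet and cycling-like cells, with log2 ratios of 0.75, 0.48 and 0.65. *Elf3* was also higher than in stem cell-like cells in all 4 replicates in enterocyte, goblet and cycling-like cells (log2 0.61, 0.56 and 0.36). It stood at 300 ± 61.2 CPM in enterocyte-like, 290 ± 21.0 in goblet-like, 253 ± 32.8 in cycling-like and 197 ± 54.0 in stem cell-like cells. The first 2 of these *Elf3* means differed by less than their SDs.

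*Cdx1* and *Gata6* ran the other way, lower in enterocyte-like than in stem cell-like cells in all 4 replicates. *Cdx1* stood at 165 ± 9.44 CPM in enterocyte-like and 237 ± 42.0 CPM in stem cell-like cells (log2 ratio -0.52, SD 0.20, n = 4). Its level in cycling-like (228 ± 33.5) and goblet-like cells (233 ± 16.1) was within 1 SD of the stem level. *Gata6* stood at 72.9 ± 13.3 CPM in enterocyte-like and 133 ± 14.3 CPM in stem cell-like cells (log2 ratio -0.87, SD 0.39). *Gata6* was at 121 ± 24.2 CPM in cycling-like and 116 ± 10.1 CPM in goblet-like cells, and at 165 ± 30.9 CPM in enteroendocrine-like cells, the highest mean of the classes named. *Cdx2* stood at 42.3 ± 17.2 CPM in stem and 56.4 ± 12.6 CPM in enterocyte-like cells, and *Gata4* at 17.7 ± 10.7 and 18.3 ± 2.33 CPM, both differences smaller than the larger SD, although *Cdx2* was higher in enterocyte-like cells in 4 of 4 replicates.

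The 2 small classes had few cells per replicate, and their levels are less precise. Paneth-like cells (121) had 405 ± 58.2 CPM of *Klf5*, 222 ± 71.8 of *Elf3*, 213 ± 56.6 of *Hnf4a*, 150 ± 47.3 of *Hnf4g*, 123 ± 30.1 of *Cdx1*, 95.8 ± 15.8 of *Gata6*, 92.7 ± 29.5 of *Klf4*, 45.7 ± 26.0 of *Creb3l3* and 43.1 ± 33.1 of *Cdx2*, with *Gata4* the lowest. The class joins unlike clusters: 93 cells led by predicted genes and 28 cells led by *Lyz1* and defensins. Over all collections *Klf5* stood at 473 CPM in the former and 97.6 CPM in the latter, and *Klf4* at 72.5 and 273 CPM. *Klf4* held 13.3% of its pair in the former (9.38 to 18.1) and 73.7% in the latter (48.8 to 90.9), a share of 14 *Klf4* and 5 *Klf5* counts. *Cdx2*, *Gata4*, *Gata6* and *Creb3l3* had 0 counts in the 28 cells, whose summed counts are few. The joint means thus mostly describe the larger cluster. The joint *Cdx1* mean lay below those of stem, cycling, goblet and enterocyte-like cells. Enteroendocrine-like cells (81, with as few as 6 in a replicate) had 244 ± 75.2 CPM of *Klf5*, 138 ± 44.3 of *Klf4*, 89.0 ± 73.0 of *Cdx1* and 34.2 ± 35.9 of *Hnf4g*. The SDs of *Cdx1* and *Hnf4g* there were close to their means. In immune cells, which give the background of free RNA, every factor but *Klf4* had a mean of 2.63 to 26.8 CPM, with *Gata4* the lowest and *Klf5* the highest.

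**Figure D1:**
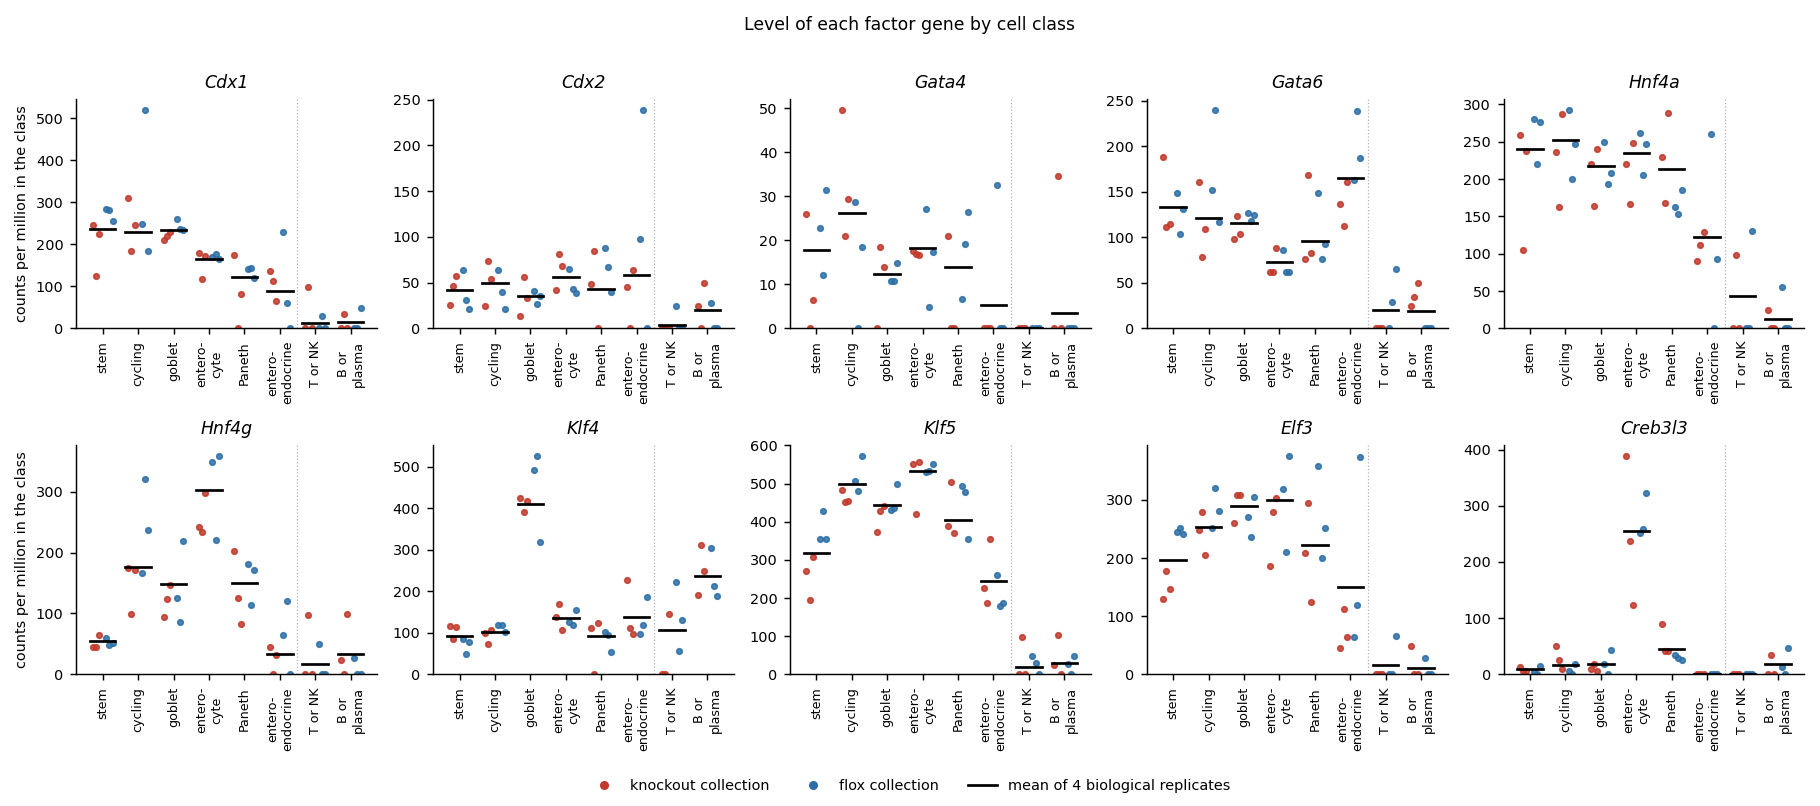
Level in CPM of each of the 10 genes by cell class; points are the 6 collections, lines the mean of the 4 biological replicates, and a dotted line sets off the immune classes. *Creb3l3* stands out in enterocyte-like cells, *Klf4* in goblet-like cells, and *Hnf4a* is nearly level from stem to enterocyte-like cells.

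Large class differences were common in the transcriptome, so the counts are read against all genes with at least 20 counts. The 2-fold limit applied to the mean over the 4 biological replicates, and each replicate only had to go the same way. By this rule 1523 of 9478 genes (16.1%) were higher in enterocyte-like than in stem cell-like cells, among them *Hnf4g* and *Creb3l3*. At least 2-fold lower were 1581 (16.7%), with none of the 10 factors. For goblet-like cells the shares were 12.3% higher, with *Hnf4g* and *Klf4*, and 8.85% lower, with none. For cycling-like cells they were 7.32% higher, with *Hnf4g*, and 1.93% lower, with none. With 2 of 10 factors against 16.1% of all genes, the number that pass in enterocyte-like cells is near the background.

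The paralog pairs shifted their balance between classes. The share of one paralog in the counts of its pair compares cells with cells, and its size also depends on how well each gene's 3′ end is caught. *Hnf4g* held 18.2% of the *Hnf4a* and *Hnf4g* counts in stem cell-like cells (exact 95% interval 14.4 to 22.5), 40.3% in cycling-like (36.7 to 43.9) and 39.8% in goblet-like cells (36.5 to 43.1). In the proximal and ileal enterocyte clusters it held 57.9% (54.8 to 60.9) and 52.4% (48.0 to 56.8). *Klf4* held 48.6% of the *Klf4* and *Klf5* counts in goblet-like cells (46.4 to 50.8), against 20.9% in stem cell-like (17.5 to 24.6), 17.6% in cycling-like, 23.4% in proximal (21.1 to 25.9) and 14.2% in ileal cells (11.7 to 17.1). In B or plasma cell-like cells it held 88.9% (78.4 to 95.4). *Cdx1* held 84.5% of its pair in stem cell-like, 86.8% in goblet-like and 72.3% in proximal cells. *Gata6* held 75.0% of the *Gata4* and *Gata6* counts in proximal cells (68.4 to 80.8) and 94.2% in ileal cells (85.8 to 98.4).

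**Figure D2:**
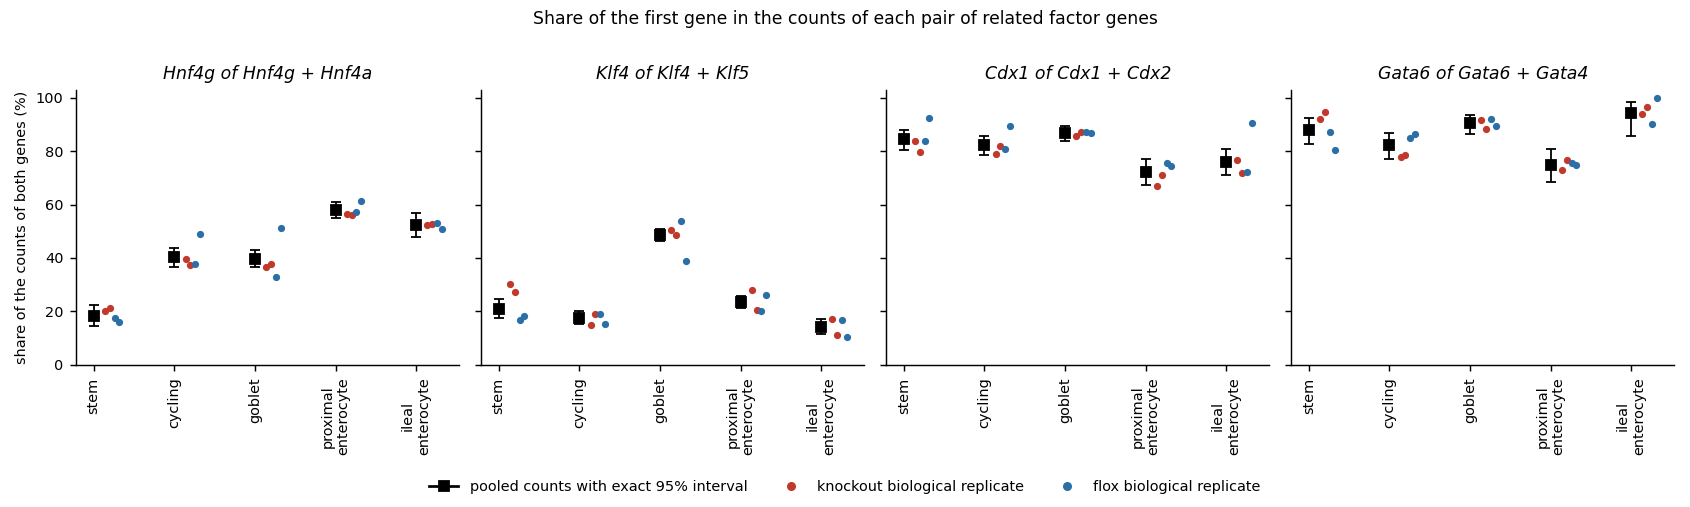
Share (%) of one paralog in the counts of its pair in stem cell-like, cycling-like, goblet-like, proximal and ileal cells; the pooled value has its exact 95% interval and the dots are the 4 biological replicates. *Hnf4g* holds 18.2% in stem cell-like and 57.9% in proximal cells, and *Klf4* 48.6% in goblet-like cells, its largest share of the 5 groups.

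Enterocyte-like cells were split by marker genes into a proximal and an ileal part, since the labels give no position along the gut. The proximal part had 647 cells in 3 clusters, numbered here 7 (306 cells), 8 (272) and 13 (69), of which 8 and 13 carried the lipid-absorption genes *Apoa4*, *Fabp1* and *Apoa1*. The cluster called ileal had 492 cells and was led by *Fabp6*, an ileal bile-acid binding protein, *Slc13a1* and *Mep1a*. Against the other kept cells it had 11 of 23 ileal and 5 of 29 proximal markers enriched, but only 5 of 20 general enterocyte markers, against 20 of 20 in cluster 8, so segment and maturity cannot be told apart here. Set against the proximal cells, only 3 of 21 measured ileal markers were at least 2-fold higher in it and 4 were lower, so "ileal" names a marker rule led by *Fabp6* and not a place. Proximal cells also held *Fabp6*, at 5983 ± 3494 CPM against 23556 ± 4460 CPM in the ileal cluster. The clusters come from the same cells, so the comparison is a description without a test.

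*Creb3l3* and *Gata4* were the factors lowest in the ileal cluster. Proximal cells of the knockout collections had 647, 450 and 225 CPM of *Creb3l3* and those of the flox collections 347, 390 and 431 CPM. In the ileal cluster the knockout collections had 26.4, 5.86 and 5.97 CPM and the flox collections 29.9, 0 and 14.8 CPM. The ranges did not overlap, with 721 counts against 16, and the pooled level was 27.3 times as high in proximal cells (counting interval 16.7 to 48.1). The ileal level of 14.9 ± 6.71 CPM was within the spread of the immune background.

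*Gata4* was a sparse gene in both parts. Proximal cells had 30.1, 27.1 and 28.8 CPM in the knockout and 34.5, 7.22 and 23.5 CPM in the flox collections. Ileal cells had 0, 5.86 and 2.98 CPM in the knockout and 9.96, 0 and 0 CPM in the flox collections. It was lower in the ileal cluster in all 6 collections, although the low proximal value of flox 2 lay under the highest ileal value. The difference rests on 50 counts against 4, a pooled ratio of 7.58 with a counting interval of 2.78 to 28.9. Its paralog *Gata6* stood at 82.3 CPM in proximal and 56.4 CPM in ileal cells (log2 ratio -0.55), lower in all 6 collections, with overlapping ranges.

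*Cdx1* had the largest ratio in favour of the ileal cluster. Proximal cells had 135, 114 and 147 CPM in the knockout and 147, 159 and 123 CPM in the flox collections. The ileal cluster had 237, 123 and 200 CPM in the knockout and 224, 214 and 288 CPM in the flox collections. The ileal value was the higher in all 6 collections, by little in knockout 2, and the log2 ratio was 0.71 (SD 0.36, n = 4). *Cdx2* had a log2 ratio of 0.22, higher in 2 of 4 replicates. *Hnf4g* was lower in the ileal cluster in all 6 collections, at 250 ± 41.0 against 332 ± 50.5 CPM (log2 -0.41, SD 0.22), with overlapping ranges. By thinned share its log2 ratio was -0.26, and it was not lower in every replicate. *Hnf4a* and *Klf5* had log2 ratios of -0.07 and 0.10, close to level. *Elf3* had -0.40, lower in 3 of 4 replicates, and its direction differed between the proximal clusters.

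*Klf4* was lower in the ileal cluster in 5 of 6 collections, at 88.8 ± 18.7 against 162 ± 30.4 CPM (log2 -0.87), but this rested on 1 proximal cluster. Against cluster 8 alone the log2 ratio was -1.54, and against clusters 7 and 13 alone it was 0.12 and 0.25. Cluster 8 had 259 ± 55.3 CPM of *Klf4*, against 81.5 ± 28.5 in cluster 7. The summed goblet marker level of cluster 8 ranged from 1819 to 11261 CPM over the 6 collections, against 585 to 1106 in cluster 7, and the part of goblet markers in this *Klf4* level was not tested. *Creb3l3* was lower in the ileal cluster against each of the 3, with log2 ratios of -2.84, -5.41 and -5.24 for clusters 7, 8 and 13, and *Gata4* with -2.87, -3.10 and -4.01. *Creb3l3* stood at 634 ± 199 CPM in cluster 8 and 106 ± 79.2 in cluster 7, so the proximal part was itself uneven. *Cdx1* was higher in the ileal cluster against each (0.42, 0.94 and 1.23). *Elf3* was lower in the ileal cluster against clusters 7 and 8 (-0.16 and -0.73) and higher against cluster 13 in all 4 replicates (1.11), and *Hnf4a* had -0.27, 0.06 and 0.30. Within the 2 inferred runs *Creb3l3* had -4.37 and -5.38, *Gata4* -2.98 and -3.17, and *Cdx1* 0.69 and 0.67.

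**Figure D3:**
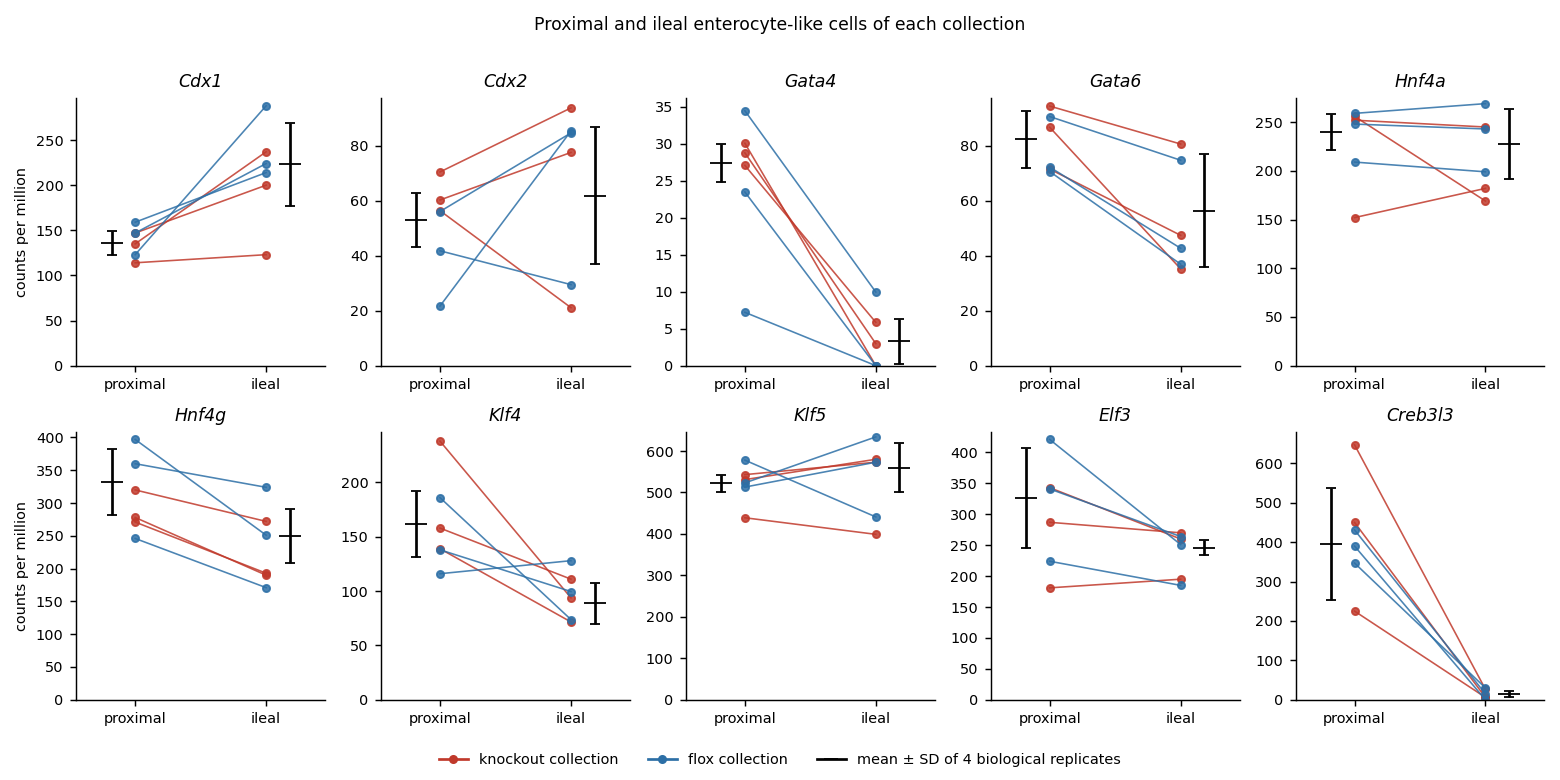
Level in CPM of the 10 genes in proximal and ileal enterocyte-like cells; lines join the same collection, and the mean and SD cover 4 biological replicates. In all 6 collections *Creb3l3* and *Gata4* are lower and *Cdx1* is higher in the ileal cluster, where *Creb3l3* reaches at most 29.9 CPM.

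**Figure D4:**
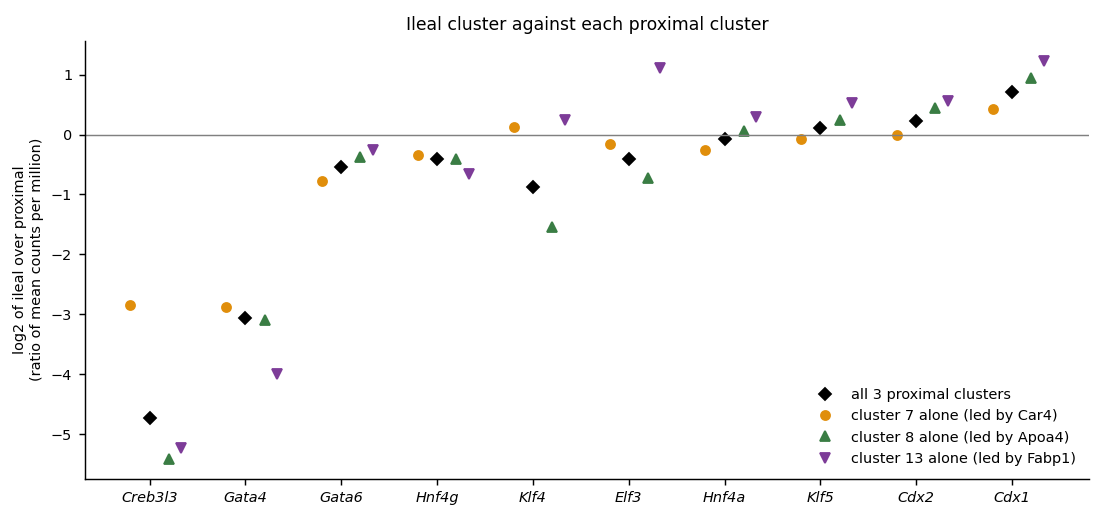
Log2 ratio of the ileal level to the proximal level for all 3 proximal clusters together and for clusters 7, 8 and 13 alone. *Creb3l3* and *Gata4* keep a negative ratio against each cluster, and *Klf4* is negative only against cluster 8 (-1.54).

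All 8368 genes with at least 20 counts were read by a 2-fold limit on the mean and the same direction in all 4 replicates. In the ileal cluster 546 (6.52%) were lower, *Creb3l3* and *Gata4* among them, and 232 (2.77%) were higher, none of the 10. Other intestinal transcription factors showed 5 of 30 lower and 0 higher, with a median log2 ratio of -0.32 against -0.0047 over all genes. *Klf6*, a Krüppel-like factor, stood at 999 ± 143 CPM in proximal and 247 ± 31.5 CPM in ileal cells, and *Ehf*, an ETS relative of *Elf3*, at 134 ± 18.5 and 248 ± 43.3 CPM. *Nr1h4*, the bile acid receptor FXR, stood at 120 ± 19.5 and 207 ± 35.4 CPM. Of 19 absorptive genes known to depend on HNF4 or CDX2, 12 were at least 2-fold lower and 0 higher (median -1.64), and all 4 measured lipid genes known to be driven by CREB3L3 were lower (median -5.03). In the absorptive list *Lct*, *Apob*, *Apoc3*, *Apoa4*, *Mttp*, *Fabp1*, *Slc5a1*, *Treh* and *Mep1a* also served as segment markers. In the lipid list *Apoa4* and *Apoa1* did. The values of both lists are therefore partly set by the rule that made the split.

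The gene whose level over the 13 named clusters was most like that of *Creb3l3* was *Apoa4*, an apolipoprotein gene that CREB3L3 is known to drive (Pearson r = 0.969, among 6185 genes). This is a description over clusters that share libraries and depth and include the immune clusters. *Apoa4* stood at 500 ± 370 CPM in proximal and 5.59 ± 2.65 CPM in ileal cells. The 250 bases before the start site of both genes are shown because their levels moved together. They come from RefSeq on GRCm38.p6 and are written 5′ to 3′ on the gene's strand. Capitals mark matches on either strand to HNF4 (CAAAGTNCA), GATA (NGATAA), CDX (TTTATG), the core of a cAMP-response element, CRE (TGACG) or KLF (CCACCC), motifs chosen after the *Apoa4* sequence had been seen. The *Creb3l3* record has 2 start sites 6281 bases apart. The windows are chr10:81098873-81099122 (minus strand, upstream site), chr10:81092592-81092841 (minus strand, downstream site) and chr9:46240594-46240843 (plus strand, *Apoa4*).
Creb3l3 upstream site: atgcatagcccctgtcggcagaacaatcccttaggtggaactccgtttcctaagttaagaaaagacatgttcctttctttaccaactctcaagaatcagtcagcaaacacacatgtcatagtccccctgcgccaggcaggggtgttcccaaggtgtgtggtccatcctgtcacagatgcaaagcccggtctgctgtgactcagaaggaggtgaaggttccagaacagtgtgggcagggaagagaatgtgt
Creb3l3 downstream site: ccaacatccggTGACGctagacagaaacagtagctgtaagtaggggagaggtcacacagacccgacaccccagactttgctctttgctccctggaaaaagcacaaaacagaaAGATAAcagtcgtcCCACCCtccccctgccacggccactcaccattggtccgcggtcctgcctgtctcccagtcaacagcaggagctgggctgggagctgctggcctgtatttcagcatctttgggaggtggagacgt
Apoa4: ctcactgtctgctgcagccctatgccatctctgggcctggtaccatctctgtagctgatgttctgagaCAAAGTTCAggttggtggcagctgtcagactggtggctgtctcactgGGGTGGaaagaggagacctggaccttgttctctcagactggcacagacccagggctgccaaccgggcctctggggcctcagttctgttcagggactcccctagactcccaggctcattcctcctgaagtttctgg

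The upstream *Creb3l3* window held none of the 5 motifs. The downstream window held a GATA match at -138, a CRE core at -239 and a KLF match at -124, counted from the start site. The *Apoa4* window held an HNF4 match at -182 and a KLF match at -135. Among 32851 RefSeq windows of 300 bases, which also take in 50 bases after the start, 1.41% held the HNF4 motif, 25.3% GATA, 11.9% CDX, 20.8% the CRE core and 31.5% KLF, so all but the HNF4 motif are common. Each match is a description of the letters. The motifs were chosen after the *Apoa4* sequence had been seen, so the 1.41% is no test of its HNF4 match. The closest genes to the others were *Cdcp1* for *Cdx1* (r = 0.955), *Aktip* for *Cdx2* (0.980), *Slc44a1* for both *Hnf4a* (0.976) and *Klf5* (0.983), *Chp2* for *Hnf4g* (0.972), *Slc25a15* for *Gata4* (0.936), *Hnrnpll* for *Gata6* (0.980), *Pigr* for *Elf3* (0.975) and *Mia3* for *Klf4* (0.868). Among the 10 themselves, *Hnf4a* and *Klf5* were most alike over the clusters (r = 0.988), and *Cdx2* and *Klf4* least (-0.409). The clusters include the T or NK and B or plasma cell-like ones, where every factor but *Klf4* was near background. All these r values thus also take in the difference between epithelium and immune cells, and none was computed within the epithelium. Every cluster also weighed the same, small or large. The 28 *Lyz1*-led cells, with few summed counts and 0 of *Cdx2*, *Gata4*, *Gata6* and *Creb3l3*, thus counted as much as any other cluster. Their part in the r values was not tested.

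No difference of the 10 factors between the genotypes passed the test. In epithelial cells edgeR's quasi-likelihood test, with p adjusted over 10322 genes, called 1 gene (0.00969%, *Mt1*), and 0 of 10 factors had an unadjusted p under 0.05, by edgeR or by DESeq2, where 247 and 102 of all genes had one. *Creb3l3* had 141, 80.1 and 44.7 CPM in the knockout and 68.4, 59.6 and 100 CPM in the flox collections, with overlapping ranges and a log2 difference of -0.01 (95% interval -0.77 to 0.74, adjusted p = 0.9998). The difference was 1.09 in inferred run 1 and -0.81 in run 2, where 1 arm is a single collection (knockout 1 and flox 3), so run and collection cannot be told apart. *Cdx1* had 207, 155 and 200 CPM in the knockout and 232, 234 and 216 CPM in the flox collections, and *Klf5* 420, 388 and 461 against 470, 463 and 506 CPM. For these 2 genes the knockout values all lay below the flox values, with log2 differences of -0.20 and -0.13 whose intervals include 0. *Cdx2* had 34.1, 71.8 and 50.2 CPM in the knockout and 57.8, 45.0 and 29.3 CPM in the flox collections, and its difference was -0.68 in run 1 and 0.985 in run 2. The log2 differences of all 10 (knockout minus flox) ran from -0.20 for *Cdx1* (interval -0.58 to 0.19) to 0.30 for *Cdx2* (interval -0.27 to 0.87). The median over the 10 was -0.099 against 0.0049 for all genes. Of 14 measured enteroendocrine markers, 8 had an unadjusted p under 0.05 in the same fit, with a median log2 difference of 0.82 and none called. Of 4 measured B or plasma cell markers, 3 had one, with a median of 1.87 (0.397 to 3.83) and none called. The part of either list in these values was not tested. A p that misses the threshold does not show that the levels are alike.

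Within classes the percent of genes called was 0.0255% in stem cell-like, 0.0171% in cycling-like, 0.270% in enterocyte-like, 0.0153% in goblet-like, 0.0190% in proximal and 0.137% in ileal cells, and no factor was among them. The log2 differences of the tested factors ran from -0.65 to 0.53 in stem cell-like, -0.42 to 0.33 in cycling-like, -0.29 to 0.39 in enterocyte-like, -0.34 to 0.10 in goblet-like, -0.34 to 0.48 in proximal and -0.35 to 0.18 in ileal cells. *Elf3* in stem cell-like cells was the 1 factor with an unadjusted p under 0.05. In those cells 144 of all 3929 genes and 1 of 8 tested factors had such a p in edgeR. *Elf3* had 129, 177 and 147 CPM in the knockout and 244, 251 and 241 CPM in the flox collections, with no overlap. edgeR gave a log2 difference of -0.65 (95% interval -1.23 to -0.07), an unadjusted p of 0.0283 and an adjusted p of 0.998, and DESeq2 an unadjusted p of 0.0973. In runs 1 and 2, each with 1 single-collection arm, the difference was -0.93 and -0.57. The filter on low counts left out *Gata4* and *Creb3l3* in stem cell-like, goblet-like and ileal cells and *Creb3l3* in cycling-like cells. *Creb3l3* in enterocyte-like cells had a log2 difference of -0.29 (adjusted p = 0.989). In the same cells all 9 tested goblet markers had positive differences (median 0.733, 6 at an unadjusted p under 0.05), 3 of 28 proximal markers had positive ones (median -0.275) and 1 of 11 Paneth markers had one (median -0.315), with none called. Their part in the *Creb3l3* value was not tested. Without knockout biological replicate 1 it was -1.22 with an adjusted p of 0.0079 in edgeR, a fit in which the lone knockout collection 3 is assumed to vary like the flox replicates. Without knockout collection 3 it was 0.26 (adjusted p = 0.842), so the value depends on which knockout replicate is kept.

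Whether the genotype difference itself differed between the proximal and the ileal cluster was tested as an interaction, which called 0 of 5664 genes (0%), with 214 at an unadjusted p under 0.05 and none of the 10 factors. The largest interaction estimates were -0.82 for *Creb3l3* (SE 0.71) and -0.79 for *Gata4* (SE 1.66), both adjusted p = 0.9997. Of 35 other intestinal transcription factors tested in epithelial cells, 0 passed, with *Ppara* at -0.57 (adjusted p = 0.9998) and *Onecut2* at -0.81 showing the smallest unadjusted p values. Of 19 absorptive genes known to depend on HNF4 or CDX2, 0 passed, with a median of 0.018, and of 4 lipid genes known to be driven by CREB3L3, 0 passed.

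**Figure D5:**
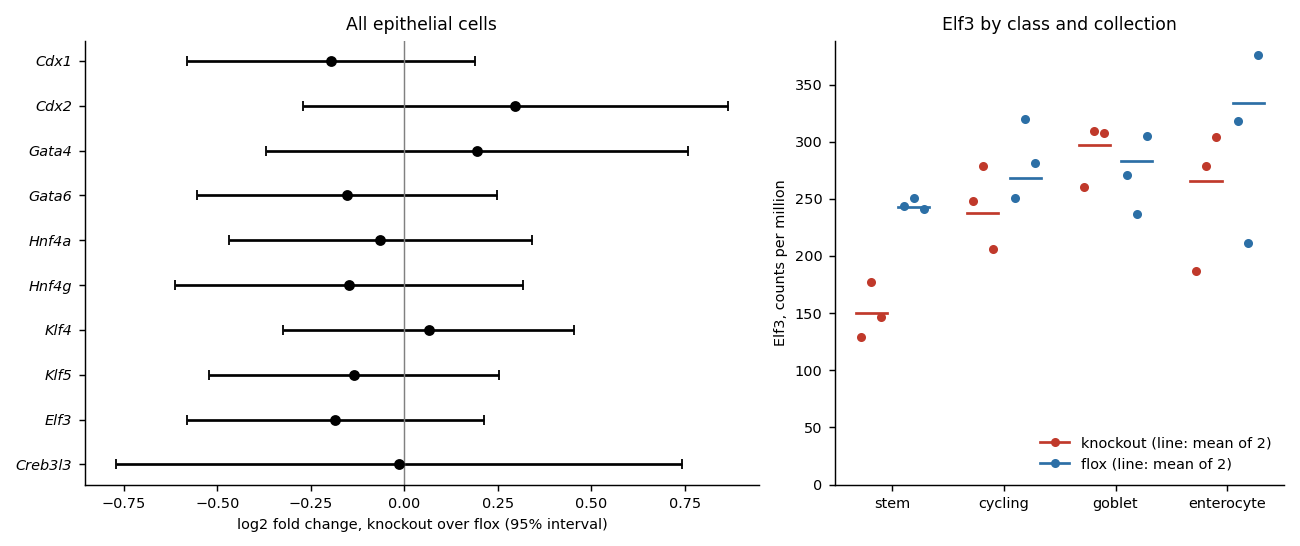
Left, log2 difference between knockout and flox (95% interval) of the 10 genes in epithelial cells; right, *Elf3* level in CPM by class and collection, with lines for the mean of 2 biological replicates. Every interval crosses 0, and the stem cell-like *Elf3* values of the knockout (129 to 177) lie below those of the flox collections (241 to 251).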

How the data were processed

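Droplet RNA-seq counts of 6 collections were analysed. The authors deposited counts, whole numbers per gene and barcode that were not normalized, per the file headers. Reads were aligned with STAR 2.6 to mm10, per the submitters' processing notes. The rule for collapsing UMIs, the counting annotation and its strand setting: not given in the sources used here. The 10 genes and all lists were chosen with earlier results of these data known, and so were the thresholds for naming clusters.

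Kept barcodes (at least 300 genes, at most 25% mitochondrial counts) were scaled to 10000 per cell, and 2000 variable genes without the 10 factors gave 30 principal components, 15 neighbours and Leiden clusters at resolution 1.0 (Python 3.11.15, scanpy 1.11.5, leidenalg 0.10.2). No doublets were called. Gene positions came from a GENCODE annotation of GRCm38. A cluster was named where at least 3 markers of its class were enriched 1.5-fold and detected in 10% of its cells, and where 2 of them were in its top 10 or 50% of the measured markers were enriched. Proximal and ileal calls needed at least 3 such segment markers and a lead of 10 percentage points. Shares used cells thinned to 500 UMIs and exact Clopper-Pearson 95% intervals.

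Counts were summed per biological replicate, at least 20 cells per sum, and tested with edgeR 4.0.16 (quasi-likelihood, TMM, filterByExpr at a minimum count of 10, Benjamini-Hochberg, threshold 0.05) in R 4.3.3, with 2 knockout against 2 flox sums. The script was tested on simulated data. Alternatives included DESeq2 1.42.0, no filter, single collections, a block, stricter cell filters, left-out collections and, chosen after seeing the data, inferred runs, shared barcodes left out and single proximal clusters. All 10 factors are named. Of each list up to 4 genes with the smallest unadjusted p or the largest segment ratio were taken, and for each factor the genes most alike in log2(CPM + 1) over the named clusters.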

Additional observations from a re-analysis of the deposited data

How the results depend on the processing

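Which factors passed a test did not depend on the settings beyond 1 case, whereas the number of all genes called did, and the cause was not tested. Without a filter on low counts edgeR called 37 genes in epithelial, 19 in cycling-like, 44 in enterocyte-like, 2 in goblet-like, 18 in proximal and 1 in ileal cells, and 1 in the interaction. With a replicate block by biological replicate it called 3 in epithelial, 9 in stem cell-like, 29 in cycling-like, 61 in enterocyte-like, 5 in proximal and 12 in ileal cells. With single collections it called 4 in enterocyte-like, 2 in proximal and 1 in ileal cells, and with a block by collection number as well 8 in enterocyte-like and 1 in ileal cells. Deviations of same-numbered collections correlated at -0.119, 0.017 and 0.326, and the main tests took no pairing. These values are of single collections. They cannot decide whether the biological replicates pair, since collections 1 and 2 are summed there. The value of 0.326 for knockout 3 with flox 3 was the highest of the 9 pairs, and these 2 also share the inferred run and the *Xist* counts. DESeq2 called 0 in proximal and 1 in ileal cells. At least 600 genes per cell gave 3 in proximal cells. At most 10% mitochondrial counts gave 2 in epithelial, 3 in cycling-like and 36 in enterocyte-like cells. Cells over 20000 counts left out gave 2 in enterocyte-like, 11 in proximal and 1 in ileal cells, and shared barcodes left out gave 6 in stem cell-like, 2 in enterocyte-like and 1 in ileal cells. Leaving out 1 collection gave 1 to 67 in epithelial, 0 to 26 in stem cell-like, 1 to 38 in cycling-like, 1 to 50 in enterocyte-like, 0 to 6 in goblet-like, 1 to 27 in proximal and 0 to 18 in ileal cells. The highest counts came without knockout 3, or in stem and goblet-like cells without flox 3. Without knockout biological replicate 1 the counts were 18 in epithelial, 2 in stem cell-like, 10 in cycling-like, 53 in enterocyte-like, 2 in goblet-like and 17 in proximal cells. Without flox biological replicate 1 they were 21 in epithelial, 20 in stem cell-like, 24 in cycling-like, 9 in goblet-like, 13 in proximal and 10 in ileal cells. Of the factors, 0 to 1 were then called in enterocyte-like cells (*Creb3l3*, without knockout biological replicate 1) and 0 in each of the other sets.

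In epithelial cells the log2 difference changed sign for *Gata4* at -0.16 (10% mitochondrial), -0.088 (unnamed clusters left out) and -0.037 (run 1), for *Creb3l3* at 0.25 (single collections), 0.16 (collection block), 0.015 (600 genes) and 1.09 (run 1), for *Cdx2* at -0.68 and for *Klf4* at -0.15 (both run 1). Leaving out 1 collection moved *Creb3l3* between -0.394 and 0.506, *Cdx2* between -0.043 and 0.528, *Hnf4a* between -0.227 and 0.050 and *Hnf4g* between -0.377 and 0.087. Without knockout biological replicate 1 *Creb3l3* was at -0.880, *Hnf4a* at 0.078 and *Hnf4g* at 0.046, and without flox biological replicate 1 *Cdx2* was at 0.835. In these leave-out settings alone the other factors kept their sign, from -0.30 to -0.09 for *Cdx1*, 0.10 to 0.45 for *Gata4*, -0.24 to -0.04 for *Gata6*, 0.01 to 0.11 for *Klf4*, -0.20 to -0.07 for *Klf5*, -0.28 to -0.09 for *Elf3* and -0.80 to -0.55 for *Elf3* in stem cell-like cells.

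The number of factors higher in the ileal cluster in every replicate went from 2 to 1 with the factors kept among the variable genes, with 600 genes, by thinned share, in run 2, with shared barcodes left out and against cluster 7 alone, and the number lower went from 5 to 3 by thinned share and against cluster 13 alone. By thinned share *Hnf4g* (-0.262), *Gata6* (-0.016) and *Klf4* (-0.825) were no longer lower in every replicate, while *Elf3* (-0.443) was. Leaving 1 out gave 1 to 2 higher and 5 to 6 lower. *Klf4* turned to 0.12 (cluster 7) and 0.24 (cluster 13), *Klf5* to -0.08 (cluster 7), *Elf3* to 1.11 and *Hnf4a* to 0.30 (both cluster 13), and *Hnf4a* ranged from -0.14 to 0.03 with 1 left out. By thinned share, factors lower in enterocyte-like than in stem cell-like cells went from 2 to 1, factors higher in goblet-like cells from 4 to 2 and in cycling-like cells from 4 (*Hnf4g*, *Klf5*, *Elf3* and *Creb3l3*) to 1, which was *Gata4* and none of those 4, with *Hnf4g* at 1.43 but not higher in all, and *Klf5* in goblet-like cells turned to -0.008. Leaving 1 out gave 4 to 6 higher and 2 lower in enterocyte-like, 3 to 5 higher and 0 to 2 lower in goblet-like and 3 to 6 higher and 0 lower in cycling-like cells. Ratios that crossed 0 with 1 left out were *Gata4* (-0.19 to 0.50) and *Hnf4a* (-0.11 to 0.04) in enterocyte-like, *Cdx1* (-0.12 to 0.08) and *Gata4* (-1.08 to 0.01) in goblet-like, and *Cdx1* (-0.12 to 0.31), *Hnf4a* (-0.01 to 0.16) and *Gata6* (-0.18 to 0.19) in cycling-like cells. The thinned share gave no segment value for *Gata4*, since 0 ileal cells held a UMI. Over the remaining settings 136 summary values stayed within their limits. Low counts limit *Gata4* and *Creb3l3* in stem, goblet and ileal cells.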

Other observations

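*Klf4* was also counted in immune cells. B or plasma cell-like cells had 192, 312 and 248 CPM in the knockout and 305, 214 and 189 CPM in the flox collections, a mean of 238 ± 35.5 CPM (SD, n = 4 biological replicates, with 8 cells in the smallest). After thinning to 500 UMIs, 9.14% of 186 such cells held a *Klf4* UMI, against at most 1.61% for each of the other 9 factors. T or NK cell-like cells stood at 106 ± 70.8 CPM.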
